A study of Homo sapiens with 4 samples.

Results

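The accessible chromatin at 10 genes of the stem cell state was examined: POU5F1 (which encodes OCT4), NANOG, SOX2, LIN28A, LIN28B, ZFP42 (REX1), DPPA4, TDGF1 (CRIPTO), PRDM14 and KLF4. ATAC-seq peaks of 4 libraries were merged into 164301 regions of the human genome (hg38), and every region that reached within 20 kb of the body of one of these genes was kept, which gave 46 regions. The cells were pancreatic progenitors made from MEL1, an established human embryonic stem cell (hESC) line, which the study's methods name MEL1 INS GFP/W and which carries a GFP reporter at INS, and all of them were grown in EF6, a basal medium with B27, EGF, bFGF and the TGFβ receptor inhibitor 616452. The control libraries received the solvent DMSO and the treated libraries 1 μM I-BET151 for 7 days (EF6I medium), with 2 libraries of 50000 cells for each condition. I-BET151 blocks the bromodomains with which BET proteins bind acetylated histones. The comparison asks how open the stem cell genes remained in the progenitors and whether I-BET151 changed it. No library of undifferentiated hESCs was analysed here, so that openness kept from the stem cell state and openness acquired later cannot be told apart, and all values come from 1 line.

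In ATAC-seq the Tn5 transposase cuts open DNA, and stretches with many cuts are called as peaks. In hESCs, OCT4, SOX2 and NANOG bind one another's genes and hold each other's transcription up, LIN28A and LIN28B block the maturation of let-7 microRNAs, and TDGF1 is a co-receptor of NODAL. PRDM14 and DPPA4 are chromatin-associated factors of stem and germ cells, and ZFP42 is a zinc finger marker of the undifferentiated state. Several of these genes are not restricted to it: SOX2 is also used in foregut and neural progenitors, KLF4 in epithelia and LIN28B in fetal progenitors.

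The sequences below are those on which the comparisons turn, written 5′ to 3′ in lower case with exact motif matches in capitals. The first 3 are the 250 bases before the transcription start, taken from a table of RefSeq promoters (GRCh38.p14) in which 6 of the 10 genes were matched. NANOG (chr12:7789152-7789401, plus strand) shows a promoter that no list called, with the joined OCT-SOX core TGCATNACA and the SOX letters CATTGT read from the other strand, which overlap. SOX2 (chr3:181711675-181711924, plus strand) and KLF4 (chr9:107489770-107490019, minus strand) show promoters that every list called. Both stretches are touched by a peak of each list, have a GC content of 68.8% and 69.2% and hold none of the motifs searched.
NANOG promoter: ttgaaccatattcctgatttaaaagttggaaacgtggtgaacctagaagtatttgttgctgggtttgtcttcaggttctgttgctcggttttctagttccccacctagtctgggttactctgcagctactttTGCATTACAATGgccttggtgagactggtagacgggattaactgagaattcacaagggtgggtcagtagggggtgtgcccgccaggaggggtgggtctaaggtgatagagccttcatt
SOX2 promoter: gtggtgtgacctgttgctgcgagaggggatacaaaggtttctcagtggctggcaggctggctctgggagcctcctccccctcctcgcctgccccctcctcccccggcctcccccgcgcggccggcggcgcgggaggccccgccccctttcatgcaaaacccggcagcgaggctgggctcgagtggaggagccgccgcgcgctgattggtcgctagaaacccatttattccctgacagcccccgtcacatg
KLF4 promoter: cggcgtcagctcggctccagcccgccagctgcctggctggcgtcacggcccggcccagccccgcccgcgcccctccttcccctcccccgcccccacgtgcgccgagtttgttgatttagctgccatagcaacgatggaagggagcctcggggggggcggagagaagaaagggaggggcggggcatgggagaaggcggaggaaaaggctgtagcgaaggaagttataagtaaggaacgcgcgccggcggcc

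The other 4 are 100 bases on each side of a summit and its own base, on the plus strand of hg38. The region 17.7 kb after the NANOG start (chr12:7807045-7807245) is the one called higher in rank with I-BET151 in the main setting (limma, adjusted p = 0.0497). That call was not kept in most other settings. The region before LIN28B (chr6:104956281-104956481) is its promoter region of all 4 lists, with a GC content of 39.8% and none of the motifs searched. The region before TDGF1 (chr3:46575386-46575586) is the single one shared by the DMSO libraries alone, and the region after LIN28B (chr6:105087755-105087955) was found only with I-BET151. Capitals mark SOX and the TEAD letters GGAATG at NANOG, GGAATG at TDGF1, and the CTCF consensus and the homeobox letters TAATTA after LIN28B.
NANOG distal region: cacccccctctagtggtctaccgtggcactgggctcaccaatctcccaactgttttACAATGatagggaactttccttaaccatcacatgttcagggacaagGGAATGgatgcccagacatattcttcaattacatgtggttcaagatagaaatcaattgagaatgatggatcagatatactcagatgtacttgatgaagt
LIN28B promoter region: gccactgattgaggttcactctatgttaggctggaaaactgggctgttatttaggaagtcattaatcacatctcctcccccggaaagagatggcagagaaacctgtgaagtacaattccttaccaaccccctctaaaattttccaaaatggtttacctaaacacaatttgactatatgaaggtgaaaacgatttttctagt
TDGF1 upstream region: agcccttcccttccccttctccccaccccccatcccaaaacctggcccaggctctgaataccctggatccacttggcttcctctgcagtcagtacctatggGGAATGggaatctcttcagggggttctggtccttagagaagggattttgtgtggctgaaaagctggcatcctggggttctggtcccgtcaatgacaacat
LIN28B downstream region: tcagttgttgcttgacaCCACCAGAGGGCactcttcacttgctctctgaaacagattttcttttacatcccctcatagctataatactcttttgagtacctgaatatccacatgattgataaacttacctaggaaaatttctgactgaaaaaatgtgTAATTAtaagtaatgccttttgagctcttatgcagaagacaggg

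The 4 lists differed in length and depth. The DMSO lists held 82568 and 38295 peaks and rested on an estimated 38.7 and 36.6 M reads (M, 10 to the power of 6), whereas the I-BET151 lists held 84995 and 111324 peaks from 12.5 and 16.0 M reads. The lowest summit called had 10 and 11 reads in the controls and 5 and 6 after treatment, and the median fold enrichment over the local background was 3.88 and 4.08 against 5.56 and 6.03. A site that a list lacks was not detectable at that depth and is not shown to be closed. In every comparison below, library and treatment move together in these respects, and their part in the results was not tested. The cells were a bulk population, in which fewer cells with an open site and less opening per cell cannot be told apart. Because the fold enrichment is on each library's own scale, the strength of a region is given as its percentile in its list, where 100 is the strongest peak, together with the reads at its summit. A percentile also depends on how many weak peaks its list holds, so that percentiles from lists of unlike length are not fully comparable.

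The stem cell promoters split into a group that was called in every library and a group that was called in none. A peak within 1 kb of the transcription start site (TSS) of the canonical transcript was present in all 4 lists for SOX2, LIN28A, LIN28B and KLF4. These were 4 of the 10 genes, against 53.5% of all 20033 protein-coding genes. POU5F1, NANOG, ZFP42, TDGF1 and PRDM14, 5 of the 10 genes, had no promoter peak in any list, against 26.2% of all genes. DPPA4 had one only in I-BET151 replicate 2, with 9 reads, at percentile 10.5. The number of the 10 promoters called was therefore 4 in each DMSO library, 4 in I-BET151 replicate 1 and 5 in I-BET151 replicate 2, while over all genes the share was 61.1% and 56.1% with DMSO and 66.5% and 70.4% with I-BET151. The number called in both libraries of a condition, 4 with DMSO and 4 with I-BET151, stayed within 1.5 times under each threshold, promoter width and choice of transcript tried. The counts of promoters in all 4 lists and in no list were not followed through these settings.

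SOX2 had the strongest of the called promoters. Its peak, with the summit 2 bp before the TSS, held 33 and 34 reads in the DMSO libraries against 36 and 59 in the treated ones, at percentiles of 88.8, 84.4, 88.3 and 90.0. The rank did not separate the conditions (limma, rank shift of -0.19 ± 0.379 SE in normal scores, adjusted p = 0.788), and it was the steadiest of the 4 open promoters. At the KLF4 promoter, 236 bp before the TSS, the DMSO libraries had 31 and 29 reads and the treated ones 27 and 58. Its percentiles were 63.7 and 57.5 with DMSO and 77.3 and 82.3 with I-BET151, without overlap, but the shift was smaller than its error (0.27 ± 0.381 SE, adjusted p = 0.695, limma).

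At the promoters of the LIN28 genes no shift passed the test. At the LIN28B promoter (summit 726 bp before the TSS) the DMSO libraries had 24 and 27 reads and the treated ones 32 and 50. Its percentiles of 76.2 and 66.5 with DMSO lay above those of 50.4 and 44.7 with I-BET151, a rank shift of -1.18 ± 0.391 SE that missed the threshold (adjusted p = 0.0843, limma; 0.0299 to 0.493 over the other rank settings). At LIN28A the region before the promoter ended 203 bp ahead of the TSS, had its summit 468 bp ahead of it and held 29 and 20 reads with DMSO against 18 and 30 with I-BET151. Its percentiles of 70.0, 20.6, 60.5 and 46.5 overlapped between the conditions, and the DMSO libraries lay at both ends (rank shift -0.23 ± 0.428 SE, adjusted p = 0.777, limma).

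Base composition separated promoters of the whole genome, and among the 10 genes each class held called and uncalled promoters. Of 12976 genes with a CpG-rich promoter (GC content of at least 50% and an observed to expected CpG ratio of at least 0.6 within 500 bp of the TSS), 73.0% had a promoter peak in all 4 lists and 8.63% in none. Of 7057 genes with a CpG-poor promoter, 17.8% had one in all lists and 58.6% in none. SOX2, KLF4, ZFP42 and PRDM14 were CpG-rich, and of these SOX2 and KLF4 were called in all lists but ZFP42 and PRDM14 in none. POU5F1, NANOG, LIN28A, LIN28B, DPPA4 and TDGF1 were CpG-poor, and of these LIN28A and LIN28B were called in all lists. With 4 CpG-rich and 6 CpG-poor genes, these counts are too few to compare with the shares of each class. The shares of 53.5% and 26.2% over all genes mix the classes, and CpG-poor promoters made up 6 of the 10 genes against 7057 of 20033. The part of base composition in the promoter counts was not tested. The NANOG promoter holds the OCT-SOX core shown above, which 0.612% of 35116 RefSeq promoters contain, and no peak reached it in any list.

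Of the 46 regions, 13 were called in all 4 lists (28.3% against 15.6% of all regions) and 18 in a single list (39.1% against 51.8%). With 9 regions gained, that is present in each I-BET151 list but absent from the DMSO lists, the share was 19.6% against 17.0% of all regions. With 1 region lost, the reverse case, it was 2.17% against 2.37%. Both shares were close to the background with all 4 lists, but single libraries decide the counts, which were 15 gained without I-BET151 replicate 1 and 9 lost without DMSO replicate 2. The comparison loci of 10 pancreatic progenitor genes (such as PDX1, NKX6-1 and SOX9) gave 20 gained (22.0%), 22 shared (24.2%) and 2 lost among 91 regions. By library, 25 and 17 of the 46 regions were called with DMSO and 28 and 33 with I-BET151. DMSO replicate 1 alone held 8 regions that no other list held, DMSO replicate 2 none, and the I-BET151 libraries 4 and 6.

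The gained regions lay at 4 genes, SOX2, LIN28B, PRDM14 and KLF4. Of the 9, 0 lay within 1 kb of the TSS of its own or another protein-coding gene, against 9.03% of all regions, gained or not. With 9 regions such a count cannot be told from that share. None of POU5F1, NANOG, LIN28A, ZFP42, DPPA4 and TDGF1 gained a region. The count depended on the length of the lists. When each list was cut to its 38295 strongest peaks, the length of the shortest one, 1 gained region was left, the one before PRDM14, and the DMSO lists had no lost region left.

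LIN28B gained 4 regions, the most of the 10 genes. The gene runs on the plus strand of chromosome 6 from 104936616 to 105083332 and is by far the longest of the set. The region 2351 bp before its TSS held 29 and 40 reads with I-BET151, the most of all gained regions, at percentiles of 44.9 and 26.1. The intronic regions 12.9 kb and 85.8 kb after the TSS were weak, with 9 and 11 reads and with 10 and 9 reads. The fourth lay past the end of the gene, 130.7 kb after the TSS, with 12 and 17 reads at percentiles of 61.9 and 54.4, and holds the CTCF match shown above. A second start of LIN28B, 16.1 kb upstream and where the antisense gene LIN28B-AS1 also lies, was called in all 4 lists with 27, 23, 29 and 50 reads. Its percentiles were 84.7 and 60.7 with DMSO and 70.1 and 63.8 with I-BET151, which overlap (adjusted p = 0.281, limma).

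PRDM14 was the only one of the 10 loci without a region in all 4 lists. The gene lies on the minus strand of chromosome 8 from 70051651 to 70071693. The region 17.5 kb before its TSS was gained with 23 and 26 reads at percentiles of 83.2 and 69.2, on average the highest of the gained regions, and it holds a CTCF match. A second gained region, 30.5 kb after the TSS and past the end of the gene, held 15 and 15 reads at percentiles of 74.1 and 53.7. DMSO replicate 1 had other regions there, one in an intron with 14 reads and one downstream with 16 reads, and DMSO replicate 2 had no peak at the locus.

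KLF4 had the densest set of regions, 9 around a gene of 5.63 kb (chromosome 9, 107484852 to 107490482, minus strand). The gained region 23.9 kb after the TSS held 13 and 21 reads at percentiles of 69.3 and 73.4, over the noncoding gene LINC01509, and the bases around its summit have a GC content of 76.1%. The other gained region had its summit in coding sequence 2.08 kb after the TSS, with 15 and 19 reads at percentiles of 19.7 and 1.87, among the weakest peaks of those lists. Of the remaining regions, 4 were called in DMSO replicate 1 alone, with 15 to 20 reads, and the region 15.0 kb before the TSS was called in 3 lists with 15, 17 and 19 reads but not in I-BET151 replicate 1.

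SOX2 (chromosome 3, 181711925 to 181714436, plus strand), a gene with a single exon, had 1 region besides its promoter. It lay 11.2 kb upstream, inside the overlapping noncoding gene SOX2-OT, and was gained with 10 and 19 reads at percentiles of 40.1 and 65.0.

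**Figure D1:**
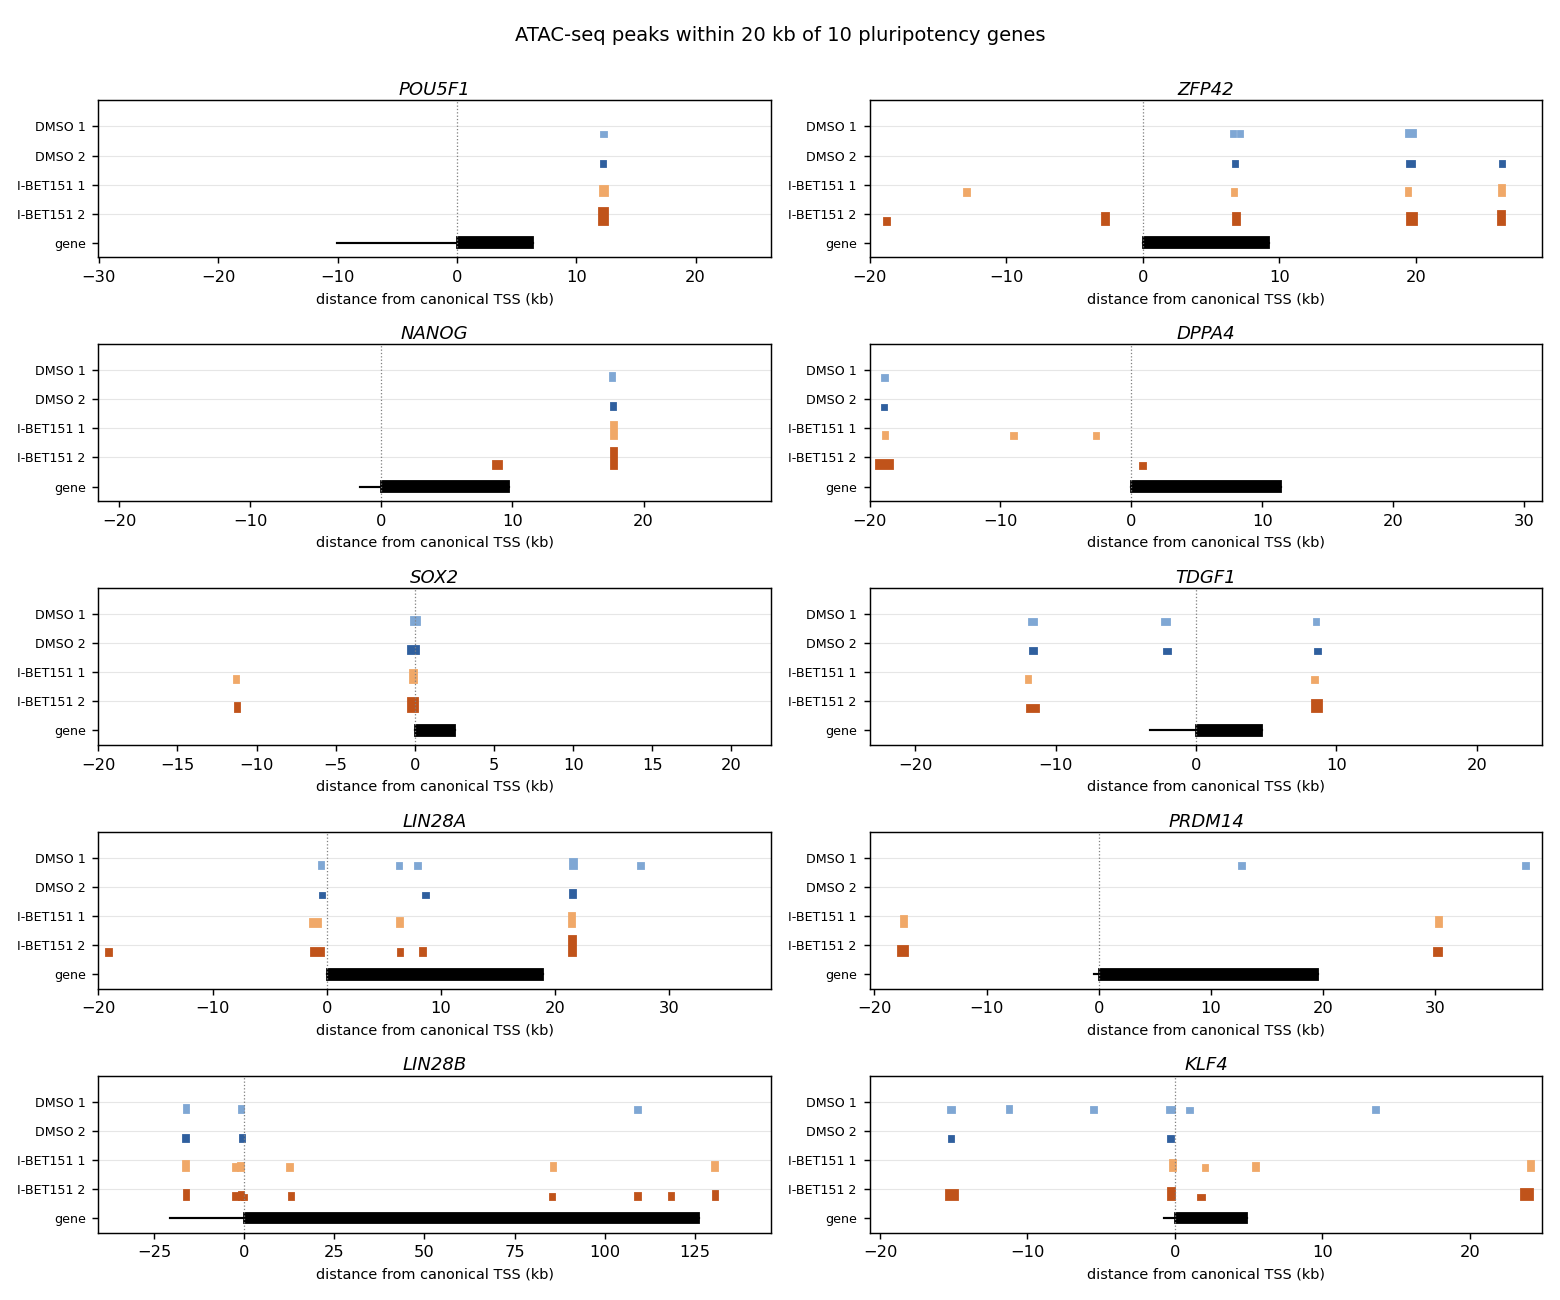
Peaks of each library within 20 kb of the 10 genes, plotted by distance from the TSS in kb (horizontal axis, positive into the gene), with the canonical transcript as a thick bar and the annotated gene as a line. Narrow peaks are drawn at a minimum width so that they can be seen. The height of a mark grows with fold enrichment, and no mark touches the start of POU5F1, NANOG, ZFP42, TDGF1 or PRDM14, while SOX2 and KLF4 have one in all 4 rows.

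The 13 regions called in all 4 lists could be compared by rank with the 25627 such regions of the genome, of which limma called 3.41% higher and 1.96% lower in rank with I-BET151. Of the 13, 1 was called higher and 0 lower at an adjusted p under 0.05. An unadjusted p under 0.05 was found for 4 of the 13 and for 6372 of all 25627 regions, so that it was common genome-wide. The shift was positive for 4 and negative for 9, with a median of -0.23 against -0.027 over all regions. Over all regions 63.5% of the calls were upward, against 22.9% when peaks were ranked by −log10 p and 12.7% with centred reads per M reads. Ranks are relative. In reads per M reads without centring, 97.4% of the 25627 regions and all 13 at the stem cell genes were higher in both treated libraries than in either control. The median log2 differences over all regions between same-numbered libraries were 1.57 and 2.25, so that every downward shift given here is downward only against this common difference. The region called was the one 17.7 kb after the NANOG start (chromosome 12, 7806897 to 7807412), downstream of the gene. Its reads numbered 22 and 19 in the controls against 26 and 50 in the treated libraries, at percentiles of 87.6 and 67.3 against 97.8 and 99.0, so that both treated libraries lay above both controls. The shift was 1.35 ± 0.38 SE in normal scores (adjusted p = 0.0497, limma). That p was just under the threshold and ran from 0.0129 to 0.317 over the other rank settings, the highest value being that without DMSO replicate 2.

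NANOG itself runs from 7787794 to 7799146 on the plus strand. It had 1 further region, in the untranslated part of its last exon, called only in I-BET151 replicate 2 with 12 reads. NANOG and POU5F1 have near-identical processed copies elsewhere in the genome, and reads in their exons may have been placed among these, so that a missing or weak exonic peak is less certain than one in unique sequence.

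At POU5F1 (chromosome 6, 31164337 to 31180731, minus strand) a single region was found within 20 kb, and it was the promoter shared by the neighbours TCF19 and CCHCR1, 12.2 kb from the POU5F1 start. Its reads numbered 29 and 29 in the controls against 28 and 85 in the treated libraries, at percentiles of 31.8 and 25.7 against 69.5 and 95.5. The shift of 1.49 ± 0.442 SE missed the threshold (adjusted p = 0.061, limma; 0.000609 to 0.285 over the other rank settings), and the lowest value was reached without I-BET151 replicate 1. No list had a peak at the POU5F1 promoter or in the 20 kb before it, where its known proximal and distal enhancers lie. Other regions at a neighbour's promoter were the one at DHDDS, 21.5 kb after the LIN28A start, with 28, 24, 26 and 61 reads at percentiles of 83.4 and above in all libraries, and the one at LRRC2, 11.5 kb before TDGF1.

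TDGF1 (chromosome 3, 46574534 to 46582457, plus strand) was the locus with the lost region. It lay 2.30 kb before the TSS, inside the annotated body of the gene and of the overlapping gene LRRC2, and held 14 and 12 reads with DMSO at percentiles of 43.3 and 6.64, close to the lowest pileup those lists contain, and it was no longer lost at a −log10 p of at least 5. The LRRC2 promoter held 19 and 19 reads in the controls against 9 and 11 in the treated libraries, at percentiles of 46.7 and 55.1 against 42.0 and 28.9, without overlap (rank shift -0.96 ± 0.421 SE, adjusted p = 0.171, limma). The region 8.47 kb after the TSS held 15, 14, 7 and 23 reads, and there the I-BET151 libraries lay on either side of the DMSO libraries.

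At ZFP42 (chromosome 4, 187995771 to 188005046, plus strand) no peak reached the promoter, yet 3 regions inside and after the gene were called in 3 or 4 lists. The intronic region 6.80 kb after the TSS held 15, 14, 7 and 22 reads, and the region 19.5 kb after it 24, 17, 10 and 41 reads, in the order DMSO replicates 1 and 2 and I-BET151 replicates 1 and 2. In both, I-BET151 replicate 1 had the fewest and replicate 2 the most reads, and the rank shifts were smaller than their errors (adjusted p = 0.748 and 0.681, limma). The region 26.4 kb after the TSS was missing from DMSO replicate 1 and held 16, 14 and 30 reads in the others. At DPPA4 (chromosome 3, 109326144 to 109337546, minus strand) the only region in all 4 lists lay 18.8 kb before the TSS, with 15, 14, 10 and 15 reads and overlapping percentiles of 58.7, 33.8, 40.1 and 53.7.

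At LIN28A (chromosome 1, 26410817 to 26429728, plus strand) 3 intronic regions were called, none of them in all lists. The one 6.37 kb after the TSS, with a CTCF match, held 20 reads in DMSO replicate 1 and 15 and 20 after treatment. The one 8.36 kb after it held 14 reads in DMSO replicate 2 and 19 in I-BET151 replicate 2, and the third was called in DMSO replicate 1 alone. The member farthest from its gene was a LIN28A region 18928 bp upstream, seen in I-BET151 replicate 2 alone at percentile 38.8, and the nearest region left out lay 22181 bp from POU5F1, in the same library alone at percentile 71.3.

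A score per gene was formed as the mean percentile of its regions in a library, counting an uncalled region as 0. It was higher with I-BET151 for 9 of the 10 genes and lower for TDGF1, with a median difference of 17.8 points against 10.6 over 18871 genes with a region, of which 82.9% were higher. POU5F1 had 28.7 ± 4.31 with DMSO and 82.5 ± 18.4 with I-BET151 (SD, n = 2), entirely through the TCF19 and CCHCR1 promoter. In the same order, SOX2 had 43.3 ± 1.53 and 70.9 ± 9.40, NANOG 38.7 ± 7.16 and 58.1 ± 13.1, PRDM14 10.4 ± 14.8 and 35.0 ± 6.07, and LIN28B 21.7 ± 8.16 and 38.0 ± 2.35. ZFP42 had 21.2 ± 3.42 and 41.3 ± 21.3, and DPPA4 11.6 ± 4.39 and 18.8 ± 3.87. For these 7 genes both treated libraries lay above both controls, and the exact permutation test of 2 against 2 libraries (two-sided) then gave p = 0.33, the smallest it can give. A region called only with I-BET151 counts as 0 with DMSO, and the reverse, so that the score is no separate measure from the calls. SOX2 rose through its gained region (0 and 0 against 40.1 and 65.0), while its promoter stayed at 88.8, 84.4, 88.3 and 90.0. LIN28B scored higher although its regions in all 4 lists had negative rank shifts (-0.698 and -1.18).

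LIN28A (30.2 ± 18.8 and 34.8 ± 4.24), KLF4 (23.1 ± 14.7 and 24.9 ± 0.476) and TDGF1 (40.7 ± 12.5 and 28.1 ± 12.3) overlapped between the conditions. Their exact permutation p (two-sided) was 1 for LIN28A and KLF4 and 0.67 for TDGF1. With lists cut to equal length the median difference of the 10 genes was -3.03, with the opposite sign, and only NANOG and ZFP42 were higher with I-BET151 in all 12 settings tried, as was POU5F1 in the 10 in which it had a region. Among these settings, the replicate number as a block cannot change a score difference by its calculation.

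**Figure D2:**
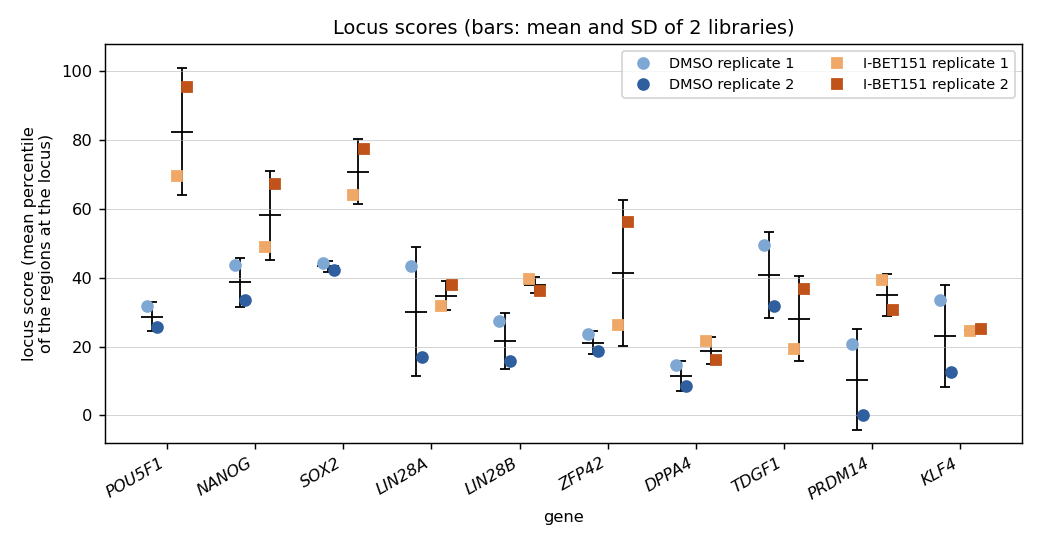
Locus score (mean percentile of the regions of a gene, vertical axis) of the 10 genes in the DMSO (circles) and I-BET151 (squares) libraries, with the mean and SD of 2 libraries as bars. Both squares lie above both circles for POU5F1, NANOG, SOX2, LIN28B, ZFP42, DPPA4 and PRDM14, and the circles and squares overlap for LIN28A, TDGF1 and KLF4.

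The wider set of stem cell genes was also uneven. All 10 genes of the LIN28 and let-7 pathway and related RNA-binding proteins had a promoter peak in all 4 lists, among them TRIM71, a let-7 target of stem cells, L1TD1, IGF2BP1 and the broadly used processing enzymes DROSHA and DICER1. Among further stem cell transcription factors, SALL4 was called in all lists, while OTX2, TFAP2C, FOXH1, UTF1 and VRTN were called in none. Of 10 signalling and surface genes, the epithelial adhesion genes EPCAM and CDH1 were called in all lists, and NODAL, LEFTY1, GDF3, SFRP2 and CD9 in none. Of 10 other stem cell genes, the DNA methyltransferase gene DNMT3B, POLR3G, JARID2, TERF1 and PHC1 were called in all, and DPPA2, DPPA3 and DPPA5 in none. Of 10 genes of the naive state, KLF5, TBX3 and NR5A2 were called in all lists and KLF17, ESRRB and DPPA3 in none.

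The labelled cell type was checked in the same way. Among pancreatic progenitor genes, NKX6-1, SOX9, FOXA2, GATA4, GATA6 and MNX1 were called at the promoter in all 4 lists, PDX1 in the I-BET151 lists only and PTF1A in none. The counts in all 4 lists were 1 of 10 endocrine genes (ISL1), 1 of 6 definitive endoderm genes (CXCR4), 0 of 6 neural, 0 of 6 mesoderm and blood, 0 of 4 germ cell, 1 of 4 liver genes (APOA1) and 3 of 4 mesenchyme genes (COL1A1, TWIST1 and PDGFRA). The neural genes SOX1 and PAX6, which share neural progenitors with SOX2, were called in 2 and 3 lists.

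**Figure D3:**
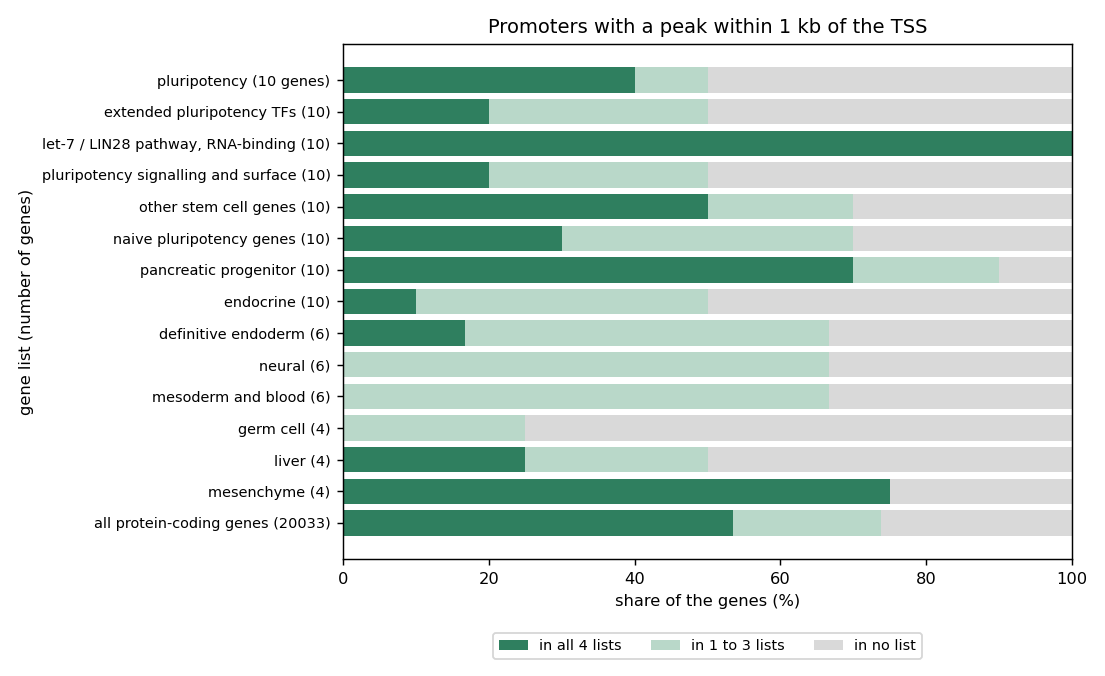
Share of the genes of each list (horizontal axis, percent) with a promoter peak in all 4 lists (dark), in 1 to 3 lists (light) or in no list (grey), with all 20033 protein-coding genes in the lowest bar. The 10 pluripotency genes reach 4 in all lists and 5 in none, against 53.5% and 26.2% of all genes, and all 10 let-7 and LIN28 pathway genes are called in all lists.

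Motifs were matched exactly on both strands from 100 bases before to 100 bases after each summit. The octamer ATGCAAAT and the OCT-SOX core TGCATNACA, the sites of OCT4 alone and with SOX2, were found in 0 of the 46 regions, against 1.08% and 0.729% of all 164301 regions, and the KLF letters CCACACCC in 0 against 2.05%. CATTGT, the SOX letters, was found in 4 (8.70% against 11.1%), AGATAA in 5 (10.9% against 14.3%), GGAATG in 7 (15.2% against 14.9%) and the AP-1 letters TGANTCA in 5 (10.9% against 11.0%). The CTCF consensus was found in 3 (6.52% against 1.79%), the regions in LIN28A, after LIN28B and before PRDM14, of which the last pair were gained. Genome-wide, it was found in 3.96% of the gained regions, 2.16% of those in all 4 lists and 0.385% of the lost ones. TAATTA was found in 2 regions (4.74% of all regions), the FOXA letters TGTTTAC in 1 (4.56%) and the HNF6 letters ATCGAT in 0 (0.602%). AGATAA is the GATA and GGAATG the TEAD letters. At 46 regions these shares rest on few matches, and a letter match is not a bound site.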

How the data were processed

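ATAC-seq of MEL1-derived pancreatic progenitors (DMSO or I-BET151) was analysed from 4 deposited peak lists, 1 per library. The authors aligned reads to hg38 with Bowtie2 (2.2.5), discarded duplicates and mitochondrial DNA, and ran MACS2 (2.1.2) on each library alone, without a control. The deposited lists give a score per peak (a display value, not used), the summit fold enrichment (a ratio to local background) and, also as −log10 by the authors, a p-value and a q-value. Between 7.54% and 10.9% of the peaks had a p-value above 1e-05, the stated threshold, and an alternative at this threshold was added once the data had been seen. The shortest peaks measured 200, 233, 200 and 256 bp (DMSO replicates 1 and 2, I-BET151 replicates 1 and 2).

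Peaks overlapping by at least 1 bp were merged and assigned with GENCODE release 44. Summit reads were solved from the fold enrichment and p-value, which fitted in 100% of peaks, and read totals from the background that MACS2 takes over its default genome size. Counting error of 5 to 85 reads is not part of the SD. Percentiles and counts were computed with Python 3.11.15 (numpy 2.4.6, pandas 2.3.3, scipy 1.17.1). Regions in all lists were compared with limma 3.58.1 in R 4.3.3 (normal scores of within-list ranks by fold enrichment, Benjamini-Hochberg adjustment over 25627 regions), and single values with exact permutation tests. The code was tested on simulated data. Nothing in the labels says that replicates were separate cultures, so that p-values measure the spread between these libraries, which may be technical. The members and gene lists were chosen with earlier results of these data known. All 10 genes were named, with their promoter, strongest, gained and lost regions, and genes of the other lists where called in all lists or in none. Some genes of these lists are not reported here. Other regions were described, and PDX1, SOX1 and PAX6 named, after their values were seen. Alternatives were stricter peaks, equal list lengths, other windows, overlaps and promoters, other rank measures, leaving out each library and the replicate number as a block.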

Additional observations from a re-analysis of the deposited data

How the results depend on the processing

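The promoter counts, 4 in both DMSO lists and 4 in both I-BET151 lists, held within 1.5 times in all settings run for them. In the same order they were 6 and 5 with the start of any protein-coding transcript and 5 and 5 with a promoter of 3 kb. They were 3 and 4 at a −log10 p of at least 10 and 4 and 3 with equal lists. The other counts rest on few regions. Of 9 gained regions, 1 was left with equal numbers of peaks per list, 5 with a 5 kb and 16 with a 50 kb window, and between 10 and 15 when single libraries were left out (15 without I-BET151 replicate 1). The 1 lost region became 0 at a −log10 p of at least 10 or 5 and with equal lists and 2 with a 50 kb window, and the count ran from 1 to 9 when single libraries were left out (9 without DMSO replicate 2, 2 without I-BET151 replicate 2). The median score difference of 17.8 became 32.5 at a −log10 p of at least 10, -3.03 with equal lists and 8.25 with a 5 kb window, and between 10.1 and 22.3 when single libraries were left out, with the lowest value without I-BET151 replicate 2. Single scores turned for SOX2 (-7.44), LIN28B (-21.1) and DPPA4 (-17.0) with equal lists, for TDGF1 (35.2) at a −log10 p of at least 10 and for PRDM14 (-20.7) with a 5 kb window. The small differences of LIN28A and KLF4 also changed sign, to -1.81 and -4.26 with equal lists, to -8.60 and -8.57 without DMSO replicate 2 and, for LIN28A, to -0.774 with a 50 kb window. POU5F1 had no region within 5 kb or without other genes' promoters.

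Rank calls depended on the measure and the regions kept. The 1 region up and 0 down became 0 up by −log10 p, 0 up and 1 down (the LRRC2 promoter, adjusted p = 0.0292) with centred log2 reads per M, and 0 up and 1 down (the LIN28B promoter, adjusted p = 0.0486) at a −log10 p of at least 10, where 5 of the 13 regions were left and the NANOG region was not tested. Without centring, a scaling added after seeing the data, 12 of 13 were up. There 97.4% of the regions shared by all lists were higher in both treated libraries, with median log2 shifts of 1.57 and 2.25, and the 9 negative shifts all turned positive with that common difference. Over all 25627 regions, 875 up and 503 down (63.5% up) became 8 and 27 (22.9% up) by −log10 p, 174 and 1191 (12.7% up) with centred reads and 24613 and 16 without centring. Leaving out single libraries gave 0 to 2 up and 0 to 2 down among the 13 regions (2 and 2 without I-BET151 replicate 1), and the NANOG call was lost without either DMSO library or without I-BET151 replicate 2. With the replicate number as a block there was again 1 up, but it was the POU5F1 neighbour promoter (adjusted p = 0.0318), and the NANOG region had 0.0559. The difference between replicates 1 and 2 with DMSO had a correlation of -0.143 with that under I-BET151. This value cannot decide whether the numbers pair the libraries. Crossed numbers, a pairing tried once the data had been seen, gave 2 up and 1 down, and 1985 up and 1567 down of all regions. The cause of these changes was not tested. At the depth of these lists, summits below 10 and 11 reads in the DMSO libraries and below 5 and 6 reads in the I-BET151 libraries were not detectable.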
